A study of Mus musculus with 6 samples.

Results

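Paraxis, the E proteins it can pair with and the Id proteins that hold E proteins back were followed as 8 genes in mouse embryos at embryonic day 9.5. They are Tcf15, which encodes Paraxis, the E-protein genes Tcf3, Tcf4 and Tcf12, and the inhibitor genes Id1, Id2, Id3 and Id4. They were taken by name and not by a cut on their values, though earlier results of these data were known. All 8 were among the 19355 genes tested. The array carries 16 probes for them among 41174 gene probes, and each of the 16 was well above background often enough to be used. Tcf3 is here the E-protein gene formerly called Tcfe2a: both of its probes are described as transcription factor 3 and lie on chromosome 10, whereas Tcf7l1, an HMG-box gene that has also been called Tcf3, has probes of its own.

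Embryos lacking Paraxis (Paraxis-/-) were compared with wild-type (WT) embryos, with C57BL/6J given as the strain of both. The tissue was the anterior presomitic mesoderm, which is about to segment, together with somites I to IV, the 4 newest segments. Each of the 3 pools per genotype combined 5 embryos. A Paraxis-/- pool was hybridised together with 1 WT pool on 2 two-colour Agilent arrays of opposite dye orientation, so the 6 arrays make 3 pairs, which take the letters A, B and C of their WT pools. Which stretch of Tcf15 the allele lacks is not given in the labels.

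Basic helix-loop-helix (bHLH) factors bind DNA as dimers at the E-box, CANNTG. Tissue-restricted members such as Paraxis work as heterodimers with E proteins, which most tissues make. Id proteins have the dimerization region but lack the basic region that touches DNA, so an E protein held by an Id protein cannot bind an E-box. In mice, Paraxis is known to be needed for new somites to become epithelial.

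A ratio is given below as Paraxis-/- over WT on the log2 scale, averaged over the dye swap of a pair, and a level is the log2 signal of a probe in 1 pool. Levels of different probes are not comparable. A gene was called changed when its limma p-value, adjusted by Benjamini-Hochberg over all 19355 genes, was under 0.05. Each array had 43379 gene spots, of which 28683 to 31795 exceeded background clearly in Paraxis-/- RNA and 27080 to 30982 in WT RNA. Slide 1 carried pair A and slide 2 carried both other pairs. With 3 pairs, precision is limited by their number.

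Shown here are 3 probes named in the results below. The first is the inner Tcf3 probe, chr10:79875963-79876022 on the minus strand. The second, from Id2, lies on the minus strand within chr12:25780183-25780530, and the last, from Id3, on the plus strand within chr4:135700075-135700249. Coordinates are the array design's, in mm9. Both Id probes are 60 bases long but span 348 and 175 genomic bases, so each crosses sequence that is spliced out. Each of the 3 probes has 1 reading frame without any stop codon. The Id2 probe has in addition 1 frame whose only stop is its last codon, shown in capitals.
Tcf3 inner probe: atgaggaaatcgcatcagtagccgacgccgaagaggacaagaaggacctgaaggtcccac
Id2 junction probe: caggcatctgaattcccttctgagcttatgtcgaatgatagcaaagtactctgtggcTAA
Id3 junction probe: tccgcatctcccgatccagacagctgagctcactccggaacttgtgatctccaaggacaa

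Of the 8 genes, 1 was called, Tcf15, which was lower in Paraxis-/- tissue. Over all genes the same test called 4, or 0.0207% (0.0103% in each direction). Without pair B no gene passed in limma, Tcf15 included, with 732 genes at an unadjusted p under 0.05, and scaling the ratios between arrays called 18 genes, 4 higher and 14 lower. None of the 3 E-protein genes or the 4 Id genes passed, and their mean ratios lay between -0.27 for Id3 and 0.19 for Id4.

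Tcf15 signal was 9.81, 9.76 and 9.71 in the Paraxis-/- pools of pairs A, B and C, against 15.04, 15.23 and 15.23 in the WT pools. The genotypes were far apart, and the pools of a genotype differed little. The mean was 9.76 ± 0.05 in Paraxis-/- pools and 15.17 ± 0.11 in WT pools (SD, n = 3 each). Tcf15 thus fell by 5.41 on the log2 scale (limma SE 0.09, adjusted p = 0.000537), or 42.5-fold, with a 95% interval of 36.4-fold to 49.6-fold lower. Flipping the signs of the 3 pair ratios in all ways (exact, two-sided) gave p = 0.25, and no lower p is possible with 3 pairs. Without pair B the limma adjusted p was 0.0861 at a ratio of -5.37.

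The 6 arrays gave much the same size of loss in both dye orientations. The Tcf15 ratio was -5.47 and -4.98 on the arrays of pair A, -5.50 and -5.46 on those of pair B and -5.62 and -5.42 on those of pair C, in each pair with Paraxis-/- RNA in Cy3 first. The weakest loss was on the array of pair A with Paraxis-/- RNA in Cy5. No Tcf15 spot was saturated. The remaining Paraxis-/- signal was still well above background in 6 of 6 measurements. The single Tcf15 probe lies at chr2:151974683-151974742 on the plus strand in mm9. Whether that stretch is present in the mutant transcript was not tested. In bulk tissue such as this, fewer cells that make a transcript and less transcript per cell cannot be told apart.

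**Figure D1:**
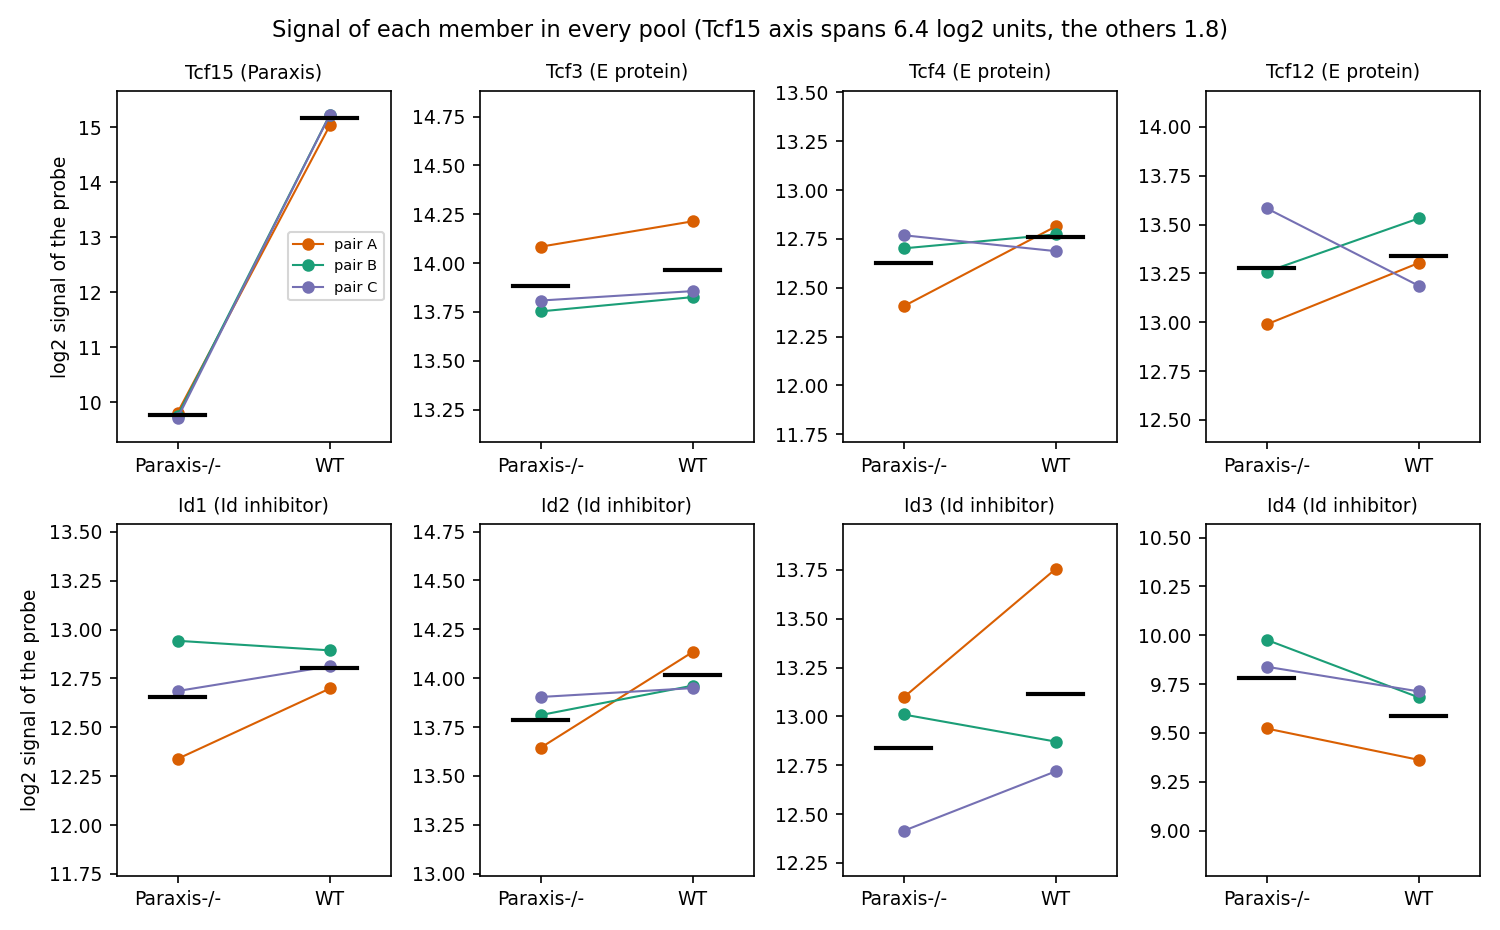
Log2 signal (vertical axis, arbitrary units) of the 8 genes in the 3 Paraxis-/- pools and the 3 WT pools, with lines joining the pools of a pair and black bars at the mean of each genotype. Tcf15 averages 9.76 in Paraxis-/- pools and 15.17 in WT pools, while the mean ratios of the other 7 genes lie between -0.27 and 0.19. The Tcf15 panel has a wider axis than the others.

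Tcf3 was read by 2 probes that differed. By the brighter one, used for the gene, its level was 14.08, 13.75 and 13.81 in Paraxis-/- pools of pairs A, B and C, against 14.21, 13.83 and 13.86 in WT pools, so the genotypes overlapped. Its ratio was -0.13, -0.07 and -0.05 in the 3 pairs, with a mean of -0.08 (limma SE 0.07, adjusted p = 0.953). The 95% interval ran from -0.25 to 0.09, or 0.838-fold to 1.06-fold of WT, for this probe alone.

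The inner Tcf3 probe printed above read lower than that. This probe starts at transcript base 1895 and the one used for the gene at base 2516, and they lie 3324 genomic bases apart. The inner probe's level was 10.91, 10.35 and 10.35 in Paraxis-/- pools, against 11.25, 10.87 and 10.70 in WT pools, with overlap between the genotypes. Within pairs its ratio was -0.34, -0.51 and -0.35, and it was negative on 6 of 6 arrays. The mean was -0.40 (limma SE 0.07, unadjusted p = 0.0025), but it did not pass over all kept probes (adjusted p = 0.52). Its ratio minus that of the probe nearer the transcript's end was -0.21, -0.44 and -0.31, a mean of -0.32 ± 0.11 (SD, n = 3 pairs). With the mean of both probes in place of the brighter one, the Tcf3 ratio was -0.24 (limma unadjusted p = 0.0108, adjusted p = 0.76). The gap was singled out after its values were seen, and it was given no test. Which Tcf3 transcripts carry each probe is not annotated in the files used here.

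Tcf4 encodes an E protein that is made in many tissues, the nervous system among them. Its level was 12.40, 12.70 and 12.77 in Paraxis-/- pools, against 12.81, 12.77 and 12.69 in WT pools. The first Paraxis-/- pool was below all others and the remaining pools overlapped. The ratio was -0.41, -0.07 and 0.08, with a mean of -0.13 (limma SE 0.11, 95% interval -0.42 to 0.16, adjusted p = 0.953). A second probe at transcript base 2590 gave -0.47, -0.00 and -0.06. Another, at base 856, was measured in pairs B and C only, at -0.18 and -0.17, because its spots in pair A were outliers on both arrays.

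Tcf12, whose product is also known as HEB, differed in direction between pairs. Its level was 12.99, 13.26 and 13.58 in Paraxis-/- pools, against 13.30, 13.53 and 13.19 in WT pools, and the genotypes overlapped. The ratio was -0.31, -0.27 and 0.40, with a mean of -0.06 (limma SE 0.16, 95% interval -0.48 to 0.35, adjusted p = 0.988). The other Tcf12 probes gave -0.26, -0.06 and 0.22 at transcript base 3125, and -0.17, 0.13 and 0.02 at base 1158 of a separate cDNA. All 3 probes were lowest in pair A, and at 2 of the 3 pair C was highest.

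Id1, Id2 and Id3, which are widely expressed targets of BMP signalling, had negative mean ratios that did not pass the test. Id1 had a level of 12.34, 12.94 and 12.69 in Paraxis-/- pools, against 12.70, 12.89 and 12.81 in WT pools. The genotypes overlapped, and the direction differed between pairs at -0.36, 0.05 and -0.13. The mean ratio was -0.15 (limma SE 0.10, 95% interval -0.40 to 0.11, adjusted p = 0.953). Id1 lies on chromosome 2 as Tcf15 does, with its probe 0.588 Mb away. Its other probe overlaps the first by 50 bases and is no separate evidence, and it gave -0.39, 0.14 and -0.14.

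By the probe used for each gene, only Id2 and Tcf15 of the 8 had pools that did not overlap between genotypes. That pattern was found in 6.00% of all genes. The Id2 level was 13.64, 13.81 and 13.90 in Paraxis-/- pools, against 14.13, 13.96 and 13.95 in WT pools. The highest Paraxis-/- pool and the lowest WT pool were close together. The ratio was -0.49, -0.15 and -0.05, negative on 6 of 6 arrays, with a mean of -0.23 (limma SE 0.11, 95% interval -0.51 to 0.05, adjusted p = 0.951). The Id2 junction probe printed above, which ends at a stop codon, read -0.57, 0.02 and 0.08. By that probe the genotypes overlapped, at 12.25, 12.61 and 12.59 in Paraxis-/- pools against 12.82, 12.58 and 12.51 in WT pools. Both probes were lowest in pair A, and the probes differed in direction in pairs B and C.

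Id3 had the widest spread of the Id genes. Its level was 13.10, 13.01 and 12.41 in Paraxis-/- pools, against 13.76, 12.87 and 12.72 in WT pools, all measured by the Id3 junction probe, its only one. The WT pools alone were far apart, with pair A highest, and the genotypes overlapped. The ratio was -0.66, 0.14 and -0.31, with a mean of -0.27 (limma SE 0.16, 95% interval -0.69 to 0.14, adjusted p = 0.951).

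Id4 was the 1 gene of the 8 with a positive mean ratio. Its level was 9.52, 9.98 and 9.84 in Paraxis-/- pools, against 9.36, 9.68 and 9.71 in WT pools, which overlap although the Paraxis-/- pool was the higher one in each pair. The ratio was 0.16, 0.30 and 0.13, with a mean of 0.19 (limma SE 0.07, 95% interval 0.01 to 0.38). The unadjusted limma p was 0.044 and the adjusted p 0.951. The second Id4 probe, at transcript base 1434, gave 0.03, 0.29 and 0.35, so both probes were positive in every pair and on 6 of 6 arrays. At an unadjusted p under 0.05 there were 2 of the 8 genes, Tcf15 and Id4, against 5.08% of all genes (2.35% higher and 2.73% lower).

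**Figure D2:**
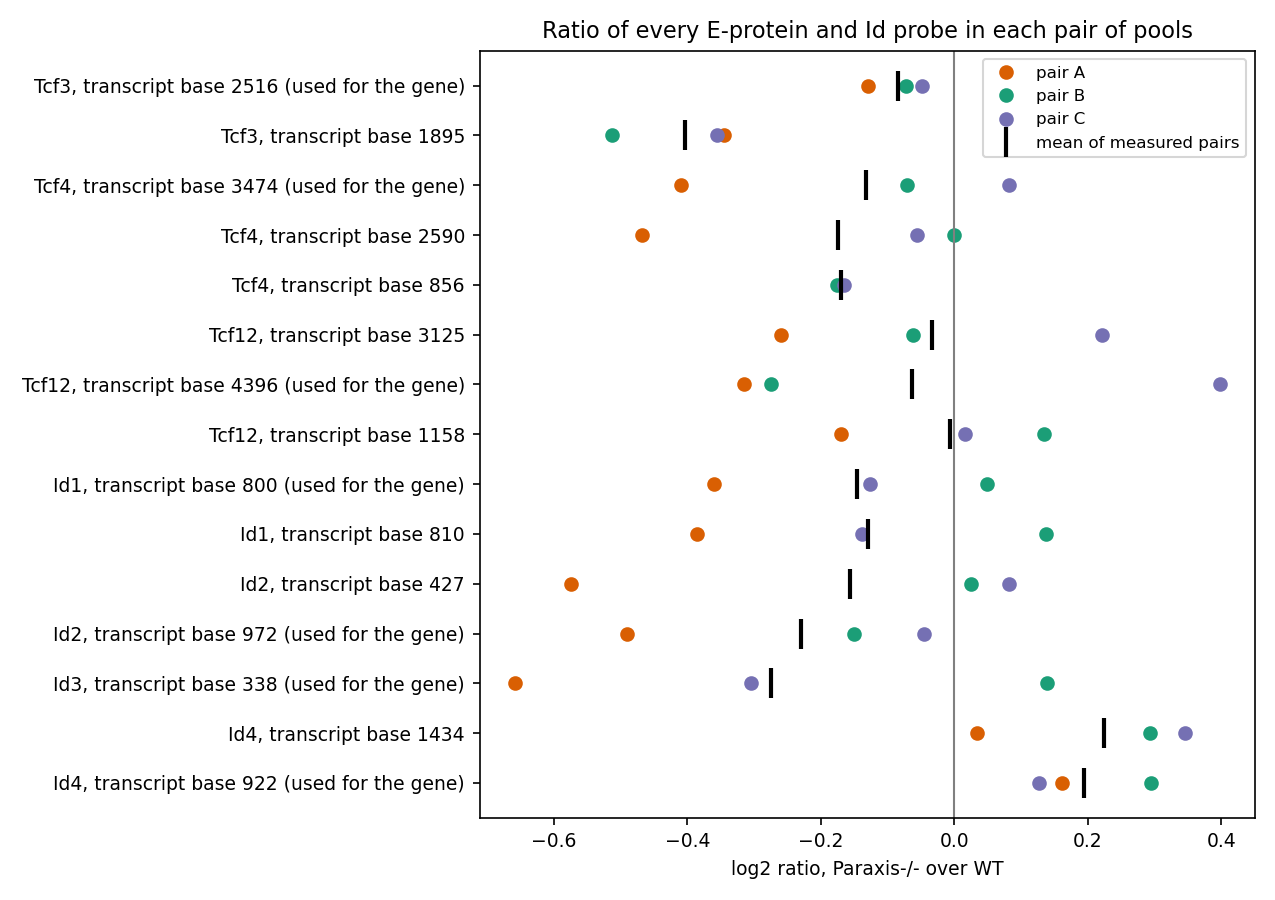
Log2 ratio of Paraxis-/- over WT (horizontal axis) for the 15 E-protein and Id probes, with 1 point per pair of pools and a bar at the mean of the measured pairs. The inner Tcf3 probe is left of 0 in all pairs and the 2 Id4 probes are right of it, while pair A is the lowest point for every Tcf4, Tcf12, Id1, Id2 and Id3 probe measured in it.

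Outside Tcf15, 3 of the 7 genes (Tcf3, Id2 and Id4) had the same sign in all 3 pairs, against 25.7% of all genes. The family means did not keep one direction over the pairs. The mean of the 3 E-protein ratios was -0.28, -0.14 and 0.14 in pairs A, B and C, and that of the 4 Id ratios was -0.34, 0.08 and -0.09. Set against each other, the Id mean minus the E-protein mean was -0.05, 0.22 and -0.23, which averages -0.02 ± 0.23 (SD, n = 3 pairs). These means pool genes of opposite sign, since Id4 was positive in every pair, and use 1 probe per gene.

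By the probe used for each gene, pair A had the lowest ratio of Tcf3, Tcf4, Tcf12, Id1, Id2 and Id3. The mean ratio of Id1, Id2 and Id3 was -0.50 in pair A, while pair B had 0.01 and pair C had -0.16. Within slide 2, which holds pairs B and C, the mean ratio was -0.04 for Id1, -0.10 for Id2, -0.08 for Id3, 0.01 for Tcf4 and 0.06 for Tcf12, while Id4 kept a value of 0.21. Tcf3 changed little, at -0.06 within slide 2 against -0.08 over all pairs. Its inner probe had -0.43 against -0.40. Slide 1 holds pair A alone, so for these genes slide and pair cannot be told apart.

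Several markers also differed between pair A and the other pairs. Tbx6, a presomitic mesoderm factor, had ratios of 2.43, -0.59 and 0.22 in pairs A, B and C. Of 16 presomitic mesoderm and somite markers, pair A had 9 with a negative ratio, pair B 15 and pair C 12, with medians of -0.04, -0.48 and -0.28. Some of them, such as Tbx18 at -1.31 and Aldh1a2 at -1.06 in pair A, were negative in every pair. Their summed level was 16.55, 16.14 and 16.42 in Paraxis-/- pools and 16.48, 16.56 and 16.52 in WT pools. Sox10, a neural crest factor, had -1.82, 0.37 and 0.45. Of 8 neural crest markers, pair A had 7 with a negative ratio, pair B 0 and pair C 1, with summed levels of 13.34, 13.14 and 13.10 in Paraxis-/- pools and 13.44, 12.84 and 12.81 in WT pools. Of 9 neural tube markers, pair A had 7 with a negative ratio, pair B 0 and pair C 1, with summed levels of 13.78, 13.90 and 13.82 in Paraxis-/- pools and 14.15, 13.61 and 13.57 in WT pools. Of 8 gut endoderm markers, pair A had 8 with a positive ratio, pair B 4 and pair C 4. Of 9 surface ectoderm markers, pair A had 9, pair B 4 and pair C 8. The gut endoderm sum was 14.39, 13.70 and 13.49 in Paraxis-/- pools and 12.61, 13.87 and 13.78 in WT pools, and that of surface ectoderm 15.20, 14.91 and 15.07 in Paraxis-/- pools and 14.26, 14.86 and 14.95 in WT pools. All of these tested markers were above background, and their part in the Id and E-protein ratios of pair A was not tested. Not every list set pair A apart by its count of signs: 11 lateral plate and intermediate mesoderm markers had 4 negative and 7 positive ratios in each pair. Their medians were 0.05, 0.09 and 0.02 in pairs A, B and C. Single genes of that list still differed in pair A, such as Wt1 at -1.16, 0.51 and -0.10 and Lhx1 at 1.05, 0.13 and 0.10. Others did not, such as Hand2 at 0.06, 0.09 and 0.02. Over all genes, ratios correlated weakly between any pairs, at r of 0.11 for A and B, 0.07 for A and C and 0.17 for B and C.

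**Figure D3:**
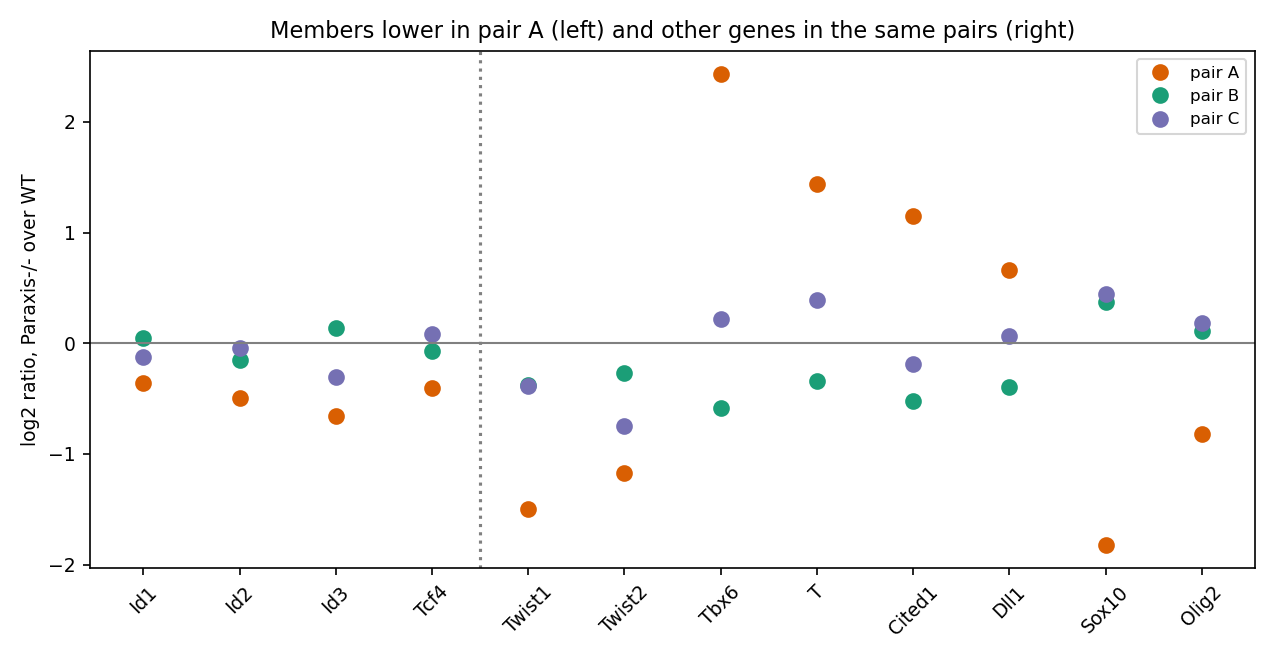
Log2 ratio of Paraxis-/- over WT (vertical axis) in pairs A, B and C for Id1, Id2, Id3 and Tcf4 (left of the dotted line) and for 8 other genes (right of it), chosen after their values were seen. Pair A is the lowest point for Id1, Id2, Id3 and Tcf4, although for Id3 pair C at -0.31 is nearer to pair A than to pair B, and it is highest for Tbx6 at 2.43 and lowest for Sox10 at -1.82.

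Some of the tissue-restricted bHLH factors that share E proteins with Paraxis were also listed. Of the 35 listed, 25 were tested and 0 passed limma's adjusted threshold. At an unadjusted p under 0.05, 2 were higher and 2 lower, against 2.35% higher and 2.73% lower over all genes. The median ratio was -0.03, where the median over all genes was 0.00. Twist1, a mesenchyme factor that also pairs with E proteins, had ratios of -1.50, -0.38 and -0.39, and its relative Twist2 had -1.17, -0.27 and -0.75. Scx, which marks tendon progenitors, had 0.51, 0.31 and 0.21. Tal1, a blood and endothelial factor, had 0.84, 1.01 and 0.54 (mean 0.80, limma SE 0.11, adjusted p = 0.367). All 10 primitive blood markers, Tal1 among them, had positive mean ratios, but pair A had 10 with a positive ratio, pair B 10 and pair C 4, Tal1 being among those 4. Their summed level was 17.60, 17.89 and 17.30 in Paraxis-/- pools against 17.31, 16.54 and 17.28 in WT pools, and its part in the Tal1 ratio was not tested.

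Hes and Hey genes encode bHLH repressors, many of them targets of Notch signalling. They were listed together with Bhlhe40 and Bhlhe41. Of 12 listed, 11 were tested and 0 passed the limma threshold, with a median of 0.09. At an unadjusted p under 0.05, 0 were higher and 1 lower, against 5.08% of all genes in either direction. Heyl, the 1 lower, had -1.19, -0.42 and -0.87 (mean -0.83, limma SE 0.16, adjusted p = 0.573). Hes6, Bhlhe40 and Bhlhe41 had mean ratios of -0.19, 0.15 and 0.12.

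BMP signalling through Smad proteins is known to induce Id genes. Of 25 ligands, receptors, Smads and antagonists, 24 were tested and 0 passed the limma threshold, with a median of 0.04. At an unadjusted p under 0.05, 2 were higher and 3 lower, against 2.35% higher and 2.73% lower over all genes. Among receptors, Acvr2b had ratios of -0.46, -0.43 and -0.25, and Acvr1 had -0.22, -0.34 and -0.18. The ligand Bmp7 had 0.45, 0.29 and 0.28. Fst, a secreted antagonist of activins and BMPs, had -0.90, -0.79 and -0.36 (mean -0.68, limma SE 0.12, adjusted p = 0.552).

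Cofactors that bind E proteins or their complexes also had no gene past the limma threshold among 11 tested. At an unadjusted p under 0.05, 2 were higher and 1 lower, against 2.35% higher and 2.73% lower over all genes. Their median ratio was -0.03. Lmo4 and Ldb1, adaptors that work together, differed in direction: Lmo4 had 0.37, 0.34 and 0.22 and Ldb1 had -0.36, -0.20 and -0.30. The corepressor Cbfa2t3 had 0.37, 0.07 and 0.63, and the coactivator Ep300 had a mean of 0.11. The 4 HMG-box genes that share the Tcf name had no call and none at an unadjusted p under 0.05: the mean ratio was 0.26 for Tcf7, 0.20 for Lef1, 0.10 for Tcf7l2 and 0.02 for Tcf7l1.

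Levels of the other 7 genes followed that of Tcf15 to different degrees over the 6 pools, as a description in which pools of a pair share arrays and genotype drives Tcf15. Pearson's r with Tcf15 was 0.75 for Id2, 0.48 for Tcf4, 0.37 for Id1, 0.32 for Id3, 0.24 for Tcf3, 0.15 for Tcf12 and -0.48 for Id4. Genes with the closest likeness among all tested were Spag6, Lrig1, Pax1 and Nfs1, each with r of 0.99, and Atoh7 with 0.98. Of these 5 genes Pax1, a sclerotome factor, fell by 4.35 (limma SE 0.13, adjusted p = 0.00466). Spag6, Pax1 and Nfs1 lie on chromosome 2 as Tcf15 does. In mm9 the Pax1 probe is 4.77 Mb and the Nfs1 probe 3.97 Mb from that of Tcf15, but the Spag6 probe is 133 Mb away. The part of linkage in the likeness of Pax1 and Nfs1 was not tested. The others had mean ratios of -0.67 for Spag6, -0.56 for Lrig1, -0.41 for Nfs1 and -0.38 for Atoh7, and none of these 4 passed. Atoh7 was not on the list of bHLH factors above.

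Because dimers with E proteins bind E-boxes, the 250 bases before the start site were searched for CANNTG, a palindromic pattern that reads alike on both strands. RefSeq promoters on GRCm38.p6 were matched for 5 of the 8 genes, with 7 start sites in all. A match was found once for Tcf3, at 1 site each for 2 of the 3 Tcf12 start sites, once for Id2 and not for Id3 or Id4, while 66.2% of 32851 promoters held at least 1. The Id2 window is printed since Id2 was the gene beside Tcf15 whose pools did not overlap by its brighter probe, though they did by its junction probe. It is chr12:25096093-25096342 in GRCm38.p6 on the minus strand, with the E-box in capitals.
Id2 promoter: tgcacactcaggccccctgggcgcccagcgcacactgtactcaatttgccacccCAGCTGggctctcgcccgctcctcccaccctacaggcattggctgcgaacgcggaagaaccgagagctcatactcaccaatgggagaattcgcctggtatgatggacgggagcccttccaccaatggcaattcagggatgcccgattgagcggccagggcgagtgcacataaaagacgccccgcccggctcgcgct
The match is a description of these letters and shows no binding.

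Over 16 processing alternatives, none of the E-protein or Id genes was called. Id1, Id2 and Id3 stayed negative and Id4 positive in all 16. An unadjusted limma p under 0.05 was met by Id4 in 8 of the 16, by Id2 in 4, by Id3 in 2, by Tcf3 and Tcf12 in 1 each and by Tcf4 and Id1 in 0. Those of Id2 and Id3 include the fit with slide as a block, where pair A, alone on slide 1, adds no spread. The inner Tcf3 probe met it in 16 of 16, with adjusted p between 0.132 and 0.994. Some of the 16 coincide: slide 2 alone is the fit without pair A, the processed signals give the ratios of the series matrix, and averaging probes leaves a single probe as it was. The other filters on dim probes and leaving out saturated spots kept each of these ratios as reported. So did no replicate block and the pair as a random replicate block. In those alternatives the sign could not differ, and only the p-values moved. Tcf3, Tcf4 and Tcf12 each turned positive in at least 1 alternative.

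**Figure D4:**
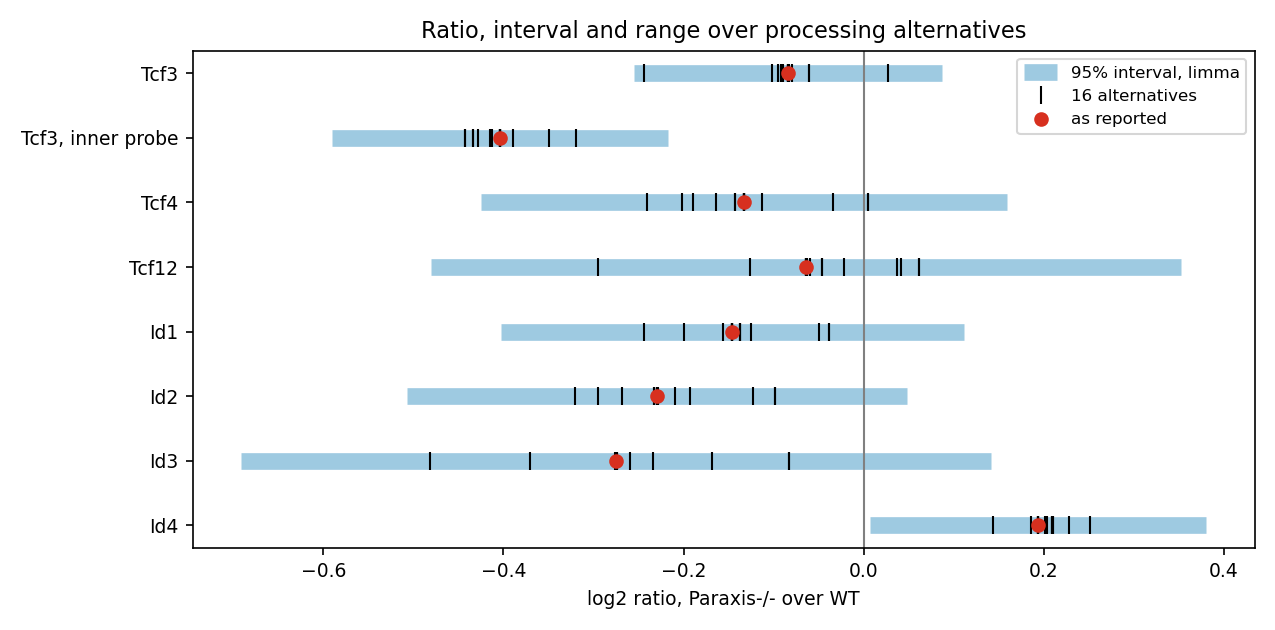
Log2 ratio of Paraxis-/- over WT (horizontal axis) for the E-protein and Id genes and the inner Tcf3 probe, with the 95% limma interval as a bar, the reported value as a red point and 16 processing alternatives as ticks. The ticks of Id4 lie between 0.14 and 0.25 and those of the inner Tcf3 probe between -0.44 and -0.32, whereas those of Tcf3, Tcf4 and Tcf12 fall on both sides of 0.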

How the data were processed

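Spot intensity was read by the authors with Agilent Feature Extraction, which per the file headers was version 10.7.3.1 for slide 1 and 10.5.1.1 for slide 2. Version 8.5.1.1 is named in the submitters' processing notes. The deposited series matrix holds log10 ratios of Cy5 over Cy3, used as an alternative, and the deposited flags for signal well above background, saturation and outliers are the scanner software's. Per the labels' protocols, 250 ng of RNA with an integrity number of at least 7.9 was labelled, and the 3 pools of a genotype are separate biological replicates.

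Median spot intensity and local background were corrected with normexp (offset 50) and normalized within arrays by loess in limma 3.58.1 (R 4.3.3, with version 1.17.8 of data.table). The 1639 control spots had no weight, outlier spots were dropped, and a probe needed 4 or more of the 6 measurements of either genotype well above background (28424 probes). The brightest kept probe stood for its gene. Dye-swapped arrays were averaged per pair, so n is 3 pairs, and lmFit with eBayes gave a two-sided test of the mean ratio against 0. In all 65 of the 19355 genes had 2 pairs only. Levels are log2 values after loess and Aquantile.

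For 2 arrays the description names other pools than the title, and the title was followed. Deviations of the arrays were taken from the mean of their dye orientation, which pushes r between arrays of 1 orientation down. Across genes they correlated at r of 0.38, 0.62 and 0.61 within title pairs. Other arrays of opposite orientation had -0.42 to -0.06. For ratios that were not centred, r was 0.31, 0.27 and 0.57 within title pairs and -0.13 to 0.09 for other arrays of opposite orientation. Arrays of the same orientation, never a title pair, had -0.03 to 0.32. Probe names were updated through a RefSeq listing (26690 by accession, 5189 by symbol, 952 by synonym), while 8343 probes keep the array design's name. Exon and UTR annotation of the probes was not used here. The fit was tested on simulated data.

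The 8 genes and the lists were chosen with earlier results of these data known. Besides the 8 genes, the text names the 5 genes most like Tcf15 and up to 4 genes with the smallest p of each list. Marker genes named for pair A were chosen after their values were seen. A summed level is the log2 of the summed linear signal of a list in a pool. The brightest probes of a list weigh most in it, so it does not measure how much of a tissue a pool held.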

Additional observations from a re-analysis of the deposited data

How the results depend on the processing

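The Tcf15 ratio lay between -5.55 and -5.30 over 16 alternatives and passed in 15. Several of the 16 change only the filter or the error and so keep the reported ratio. Leaving out 1 pair gave -5.50 to -5.35, and without pair B it was -5.37 with a limma adjusted p of 0.0861, so the count of called genes among the 8 ranged from 0 to 1 (without pair B 0, with 2 at an unadjusted p under 0.05). Over all genes, 4 were called (2 higher, 2 lower). Scaling between arrays gave 18 (4 higher, 14 lower), slide as a block 76 (39 higher, 37 lower), slide 2 alone 2, and leaving out 1 pair 0 to 2, with 0 without pair B (732 at an unadjusted p under 0.05 in limma). With slide as a block, pair A is alone on slide 1, so the spread between pairs comes from pairs B and C only. On the pairing, no replicate block gave 91 (41 higher, 50 lower), where technical dye swaps count as replicates, and the pair as a random replicate block gave 40 (13 higher, 27 lower). Neither called an E-protein or Id gene. Tcf12, at -0.06 as reported, turned positive with median centring in place of loess (0.037), within slide 2 (0.062), and on leaving out 1 pair, where its ratio ranged from -0.29 to 0.062. Tcf3 turned to 0.027 with median centring and was -0.24 with the mean of its probes, the ends of its range. Tcf4 turned to 0.0051 within slide 2, which is also the fit without pair A (replicate 1). The cause of these turns was not tested. Ranges were -0.24 to 0.01 for Tcf4, -0.29 to 0.06 for Tcf12, -0.24 to -0.04 for Id1, -0.32 to -0.10 for Id2, -0.48 to -0.08 for Id3 and 0.14 to 0.25 for Id4. With 3 pairs, a p that missed the threshold does not show equal levels, and genes near background have less certain ratios.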
